A study of Mus musculus with 30 samples.

Results

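The insulin-like growth factor (IGF) family was described here by 9 genes, namely the ligands *Igf1* and *Igf2*, the receptor *Igf1r*, and the binding proteins *Igfbp2*, *Igfbp3*, *Igfbp4*, *Igfbp5*, *Igfbp6* and *Igfbp7*. They were chosen by symbol out of 32316 genes in the data. IGF1 and IGF2 are secreted growth factors that signal through IGF1R, a receptor tyrosine kinase whose adaptor proteins pass the signal to the PI3K and AKT kinases. Binding proteins hold the ligands outside the cell and can either restrain them or carry them to their receptor, and proteases free the ligands by cleaving the binding proteins. In the gut, IGF1 from mesenchymal cells is known to promote growth of the epithelium and of smooth muscle.

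Mesenchymal cells of the mouse small intestine (SI) and colon were sorted into subsets, and the RNA of each subset was sequenced in bulk to compare fibroblast (FB) subsets, pericytes and smooth muscle cells (SMC) within and between the organs. All mice were untreated C57BL6/Nrj animals, 8 to 10 weeks old, and the labels name no allele and no agent. Cells that were dead or carried lineage markers, CD31, BP3, EpCAM or high NCAM had been gated out. Each of 10 populations had 3 libraries, 30 in all; the labels speak of 3 individual mice without saying which libraries share a mouse.

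Pericytes of both organs were the PDGFRα-ESAM-1+PDPN- cells, and SI SMC were their PDPN+ counterparts. From the SI, PDGFRα hi FB (ESAM-1-PDGFRα hiCD34-), Fgfr2+ FB (ESAM-1-PDGFRα intCD34-) and CD34+ FB (ESAM-1-PDGFRα intCD34+) were collected. The CD34+ FB gate is labelled as holding Igfbp5+ FB and CD81+ FB together, so *Igfbp5* itself served to name a subset inside that gate. From the colon came PDGFRα hi FB (ESAM-1-PDPN+CD34-), Fgfr2+ FB (ESAM-1-PDPN hiCD34+CD90-), CD90+ FB (ESAM-1-CD34+PDPN hiCD90+) and CD81+ FB (ESAM-1-PDPN intCD34+CD90-). No colonic SMC libraries were analysed here. Between the organs the gates of Fgfr2+ FB differed in CD34. PDGFRα hi FB were gated on PDGFRα in the SI and on PDPN in the colon. In these FB, organ and gate thus cannot be told apart.

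Estimated counts per library ran from 2245052 to 19096945, with a median of 9601683. The smallest library was the third replicate of SI Fgfr2+ FB, whose population spanned 2245052 to 15098412 counts. SI pericytes had 6185421 to 9075187, SI SMC 8866828 to 13507159, SI CD34+ FB 9432531 to 11930055 and SI PDGFRα hi FB 7327358 to 18148945 counts. In the colon the ranges were 9225411 to 13866610 for pericytes, 13102446 to 18710840 for CD81+ FB, 14456220 to 19096945 for CD90+ FB, 8740291 to 9785938 for Fgfr2+ FB and 6865683 to 7248567 for PDGFRα hi FB. The unit CPM stands for TMM-scaled counts in every 1000000 of a library, and shares of family genes are taken from CPM per kilobase of effective transcript length. Marker sums are in CPM and not divided by length. Of 90 population means of family genes, 17 moved by more than their SD with length-scaled counts and 1 with RLE size factors. Differences are log2 fold changes from edgeR's quasi-likelihood test in 1 model of all 30 libraries, with p adjusted by Benjamini-Hochberg over the 17542 genes that reached 6 counts in at least 3 libraries. A gene was called when its adjusted p lay below 0.05 and its absolute log2 fold change above 1.5. Of the 9 family genes 8 were tested, and *Igfbp2* was not, having 2 counts in all libraries together. In bulk RNA, fewer cells of a type and less RNA per cell cannot be told apart.

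Marker genes were summed per library to check the sorted populations. The 8 pericyte markers summed to 45613 ± 9373 CPM (SD, n = 3) in SI pericytes and 43576 ± 10974 in colonic pericytes, and to at most 5713 on average elsewhere, in SI SMC. *Rgs5*, a regulator of G protein signalling and 1 of the 8, also reached 3800.2 CPM in SI CD34+ FB. *Kcnj8*, a pericyte potassium channel gene, had its highest mean in SI PDGFRα hi FB, at 568 CPM. The sum of the 6 smooth muscle markers was highest in SMC (19874 ± 2160.4 CPM) and next in colonic pericytes (11090.0 ± 608). It was 3655 ± 806 in SI pericytes and 2861.5 ± 780 in SI PDGFRα hi FB. *Des*, 1 of the 6, had its highest mean in SI pericytes. *Esam*, used in the gates, averaged 119 CPM in SMC, 109.6 in SI pericytes and 141 in colonic pericytes, and was below 1 CPM on average in every FB population. The 6 fibroblast markers summed to 13131 to 51059 CPM in FB populations, against 1617 in colonic pericytes, 2366 in SI pericytes and 6593 in SMC. *Pdgfra*, the receptor gene that names the PDGFRα hi FB, averaged 6515 CPM in the SI PDGFRα hi FB and 2444 in the colonic PDGFRα hi FB, above every other population. *Fgfr2* averaged 1647 CPM in SI Fgfr2+ FB, but in the colon it lay at 503, 458 and 457 CPM in Fgfr2+ FB and 324, 441 and 333 in CD90+ FB. *Thy1*, which encodes CD90, lay at 119.7, 426 and 118 CPM in SI pericytes and 255, 175 and 159 in colonic CD90+ FB, and the higher mean of the pericytes (221 against 197) came from replicate 2.

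Markers of other cell types were summed as well. The 5 epithelial markers summed to at most 10.6 CPM on average, with *Epcam* at 0 in 28 of 30 libraries. The 3 mesothelial markers averaged at most 6.10 CPM, in colonic CD81+ FB (0.312, 15.9 and 2.08), and the 5 glial markers at most 31.6, in SI pericytes, where *Sox10* and *Gfap* were at 0. *Ano1*, a chloride channel gene of interstitial cells of Cajal, averaged 779 CPM in SI pericytes and 722 in colonic pericytes, where *Kit*, the defining gene of those cells, stood at 2.93 and 0.0420 CPM. *Kit* had its highest mean in SI PDGFRα hi FB, with 7.10, 8.52 and 43.4 CPM. The 6 endothelial markers averaged 32.7 to 97.1 CPM per population and the 6 immune markers 16.3 to 195.

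A few libraries stood apart from their replicates. In SMC replicate 3 the endothelial sum was 202 CPM, against 46.9 and 42.0, with 4 of the 6 markers above 0 and *Plvap* and *Cldn5* at 0. The same library had a fibroblast sum of 9344 CPM (the others 5143 and 5291) and a pericyte sum of 7994 (the others 4809 and 4337). SI pericyte replicate 1 had an immune sum of 432 CPM, against 80.6 and 72.3. In that library *Cd68* and *Cd79a* added 228 and 199.8 CPM to the sum, and *Lyz2*, *Cd3e* and *Jchain*, 3 of the 6 markers, were at 0. Its glial sum was 56.9 CPM, against 18.0 and 19.9, and its mesothelial sum 9.87, against 0.505 and 0.983, with *Msln* and *Upk3b* at 0. Colonic CD81+ FB replicate 1 had the highest smooth muscle sum of its population, 124, 71.2 and 40.6 CPM in replicates 1, 2 and 3. That replicate 1 was also the library with the most *Igf2*, *Igf1r*, *Igfbp3* and *Igfbp5* in its group. Replicate 2 had an epithelial sum of 30 CPM in SI pericytes, against 0.215 and 0.492, and of 31.6 in colonic pericytes, against 0 and 0.0718. The part of these markers in the results was not tested, and calls described here that were lost without such a library are given with their values.

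*Igf1*, the ligand that relays growth hormone action after birth (GRCm38 chr10:87858265-87937042, plus strand), was highest in SI SMC, with 1185, 1304 and 2546 CPM in the 3 libraries (1679 ± 754, SD, n = 3). Each of them lay above all 27 other libraries. Colonic CD81+ FB followed with 908, 950.5 and 958 CPM, with the smallest SD relative to the mean for this gene. SI Fgfr2+ FB came next with 734, 545 and 780.0. The libraries of these 3 populations did not overlap. Lower down, colonic CD90+ FB had 269.8, 309 and 637 CPM, SI PDGFRα hi FB 308, 310.0 and 389.7, and SI CD34+ FB 390.3, 256 and 350.1. Colonic Fgfr2+ FB had 256, 184 and 436 and colonic PDGFRα hi FB 193, 231 and 205 CPM. From SI Fgfr2+ FB down to colonic PDGFRα hi FB, each population overlapped its neighbour in the order of means. Pericytes stood far below, with 11.4, 4.16 and 5.53 CPM in the SI and 2.80, 3.27 and 2.08 in the colon, the latter from 26, 26 and 29 counts. Neither pericyte population overlapped the other or any FB or SMC library, and the highest mean was 618 times the lowest.

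SI pericytes held less *Igf1* than the mean of the SI FB populations (log2 difference -5.94, SE 0.44, adjusted p = 4.96e-11), with all 3 pericyte libraries below all 9 FB libraries. Without pericyte replicate 1 the fold change was -6.48 (adjusted p = 3.32e-10). Colonic pericytes differed from colonic FB in the same direction (log2 difference -7.17, SE 0.47, adjusted p = 2.6e-12), again with no overlap. SMC stood above SI FB (log2 difference 1.98, SE 0.28, adjusted p = 9.61e-06) in 3 of 3 libraries, and without SMC replicate 3 the fold change was 1.57 (adjusted p = 0.00105). Pericytes and SMC of the SI were thus at the opposite ends of its *Igf1* range (log2 difference -7.92, SE 0.50, adjusted p = 3.16e-11). That difference was -7.55 (adjusted p = 5.21e-11) without SMC replicate 3 and -8.50 (adjusted p = 2.21e-10) without pericyte replicate 1. Among colonic FB, CD81+ FB exceeded PDGFRα hi FB (log2 difference 2.16, SE 0.38, adjusted p = 0.000438) and Fgfr2+ FB (log2 difference 1.68, SE 0.38, adjusted p = 0.0184), in both cases without overlap. Without CD81+ FB replicate 1 these were 2.19 (adjusted p = 0.00108) and 1.71 (adjusted p = 0.0295). The call against Fgfr2+ FB was lost without CD81+ FB replicate 2 or 3 or Fgfr2+ FB replicate 1 or 2, with log2 fold changes of 1.44 to 1.68 and adjusted p of 0.054 to 0.166. It was also lost with length-scaled counts (adjusted p = 0.0542) and in a fit of only the compared populations (adjusted p = 0.0836), within a range of 0.00197 to 0.166 over all alternatives and left-out libraries.

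Between the organs *Igf1* was not called in any subset. SI pericytes had more than colonic pericytes in 3 of 3 libraries, but the log2 fold change of 1.36 (adjusted p = 0.0439) stayed under the fold threshold. It passed without SI pericyte replicate 2 (1.63, adjusted p = 0.0222) and, barely, without replicate 3 (adjusted p = 0.0299). In Fgfr2+ FB the difference between organs was 1.23 (adjusted p = 0.105), and without colonic Fgfr2+ FB replicate 3 it was called (1.64, adjusted p = 0.0494). In PDGFRα hi FB it was 0.68 (adjusted p = 0.871). Among the 8 annotated *Igf1* transcripts, Igf1-202 took 64.5% of the counts over all libraries.

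*Igf2*, the imprinted fetal growth ligand (chr7:142650766-142666816, minus strand), had its highest means in pericytes. SI pericytes had 45.7, 136 and 122 CPM (101 ± 48.5, SD, n = 3) and colonic pericytes 98.5, 48.2 and 101. SMC had 17.5, 37.8 and 97.1 CPM and colonic PDGFRα hi FB 22.4, 68.1 and 30.1. Colonic CD81+ FB had 183, 13.6 and 7.33 CPM, so that 1 of its 3 libraries was the highest of all 30 and the others lay within the range of the other FB. SI CD34+ FB had 13.3, 13.9 and 11.5 CPM, with the smallest SD relative to its mean. The remaining means were 14.0 CPM in colonic CD90+ FB, 10.1 in colonic Fgfr2+ FB, 6.75 in SI PDGFRα hi FB and 3.02 in SI Fgfr2+ FB. No pair of neighbours in the order of means was separated, although the highest mean was 33.5 times the lowest.

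SI pericytes exceeded SI FB (log2 difference 4.0, SE 0.61, adjusted p = 1.82e-05), all 3 libraries above all 9. The call was kept in every alternative and with any library left out, and without pericyte replicate 1 the fold change was 4.32 (adjusted p = 2.2e-05). SMC exceeded SI FB too (log2 difference 3.01, SE 0.61, adjusted p = 0.00159), without overlap, but this call rested on SMC replicate 3. Leaving that library out gave 2.15 (adjusted p = 0.0899), in a range of 0.000107 to 0.0899 over all settings. SI pericytes and SMC overlapped (log2 difference 0.99, SE 0.82, adjusted p = 0.47). Colonic pericytes were called above colonic FB (log2 difference 1.73, SE 0.58, adjusted p = 0.0368), while their libraries overlapped. That call was lost without replicate 1 or replicate 3 of the colonic pericytes, CD90+ FB, Fgfr2+ FB or PDGFRα hi FB, with log2 fold changes of 1.56 to 1.71 and adjusted p of 0.0509 to 0.126. Without CD81+ FB replicate 1 the fold change was 2.40 (adjusted p = 0.000342). Length-scaled counts gave 1.03 (adjusted p = 0.26) and a fit of only the compared populations gave adjusted p = 0.0585, in a range of 0.000342 to 0.26 over all settings. The call in colonic pericytes thus depended on single libraries, unlike that in SI pericytes.

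On the scale of CPM per kilobase, *Igf2* made up 98 ± 1.00% (SD, n = 3) of both ligand transcripts in SI pericytes and 95.5 ± 2.99% in colonic pericytes. In all other populations its mean share lay between 0.955% in SI Fgfr2+ FB and 14.3% in colonic PDGFRα hi FB. Pericytes were thus the populations whose ligand RNA was mainly *Igf2*, with little *Igf1* present, while SMC had 1.92%.

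**Figure D1:**
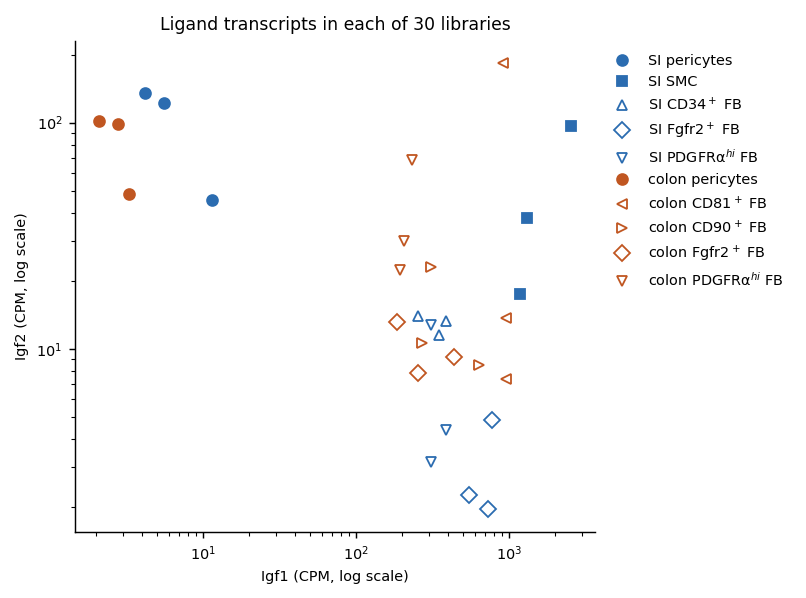
*Igf1* level (horizontal, CPM, log scale) against *Igf2* level (vertical, CPM, log scale) in each of 30 libraries, blue for SI and orange for colon, filled for pericytes and SMC and open for FB. The 6 pericyte libraries lie at the left, at 2.08 to 11.4 CPM of *Igf1*, and 1 colonic CD81+ FB library lies at the top with 183 CPM of *Igf2*.

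The estimated counts of *Igf2* were spread over transcripts that begin at different positions. Igf2-201, which starts at chr7:142657496 on the minus strand, took 68.9% of all *Igf2* counts, and the short non-coding Igf2-208 took 20.8%. In colonic pericytes Igf2-201 held 100%, 100% and 85.3% of the counts of replicates 1, 2 and 3, and in SI pericytes 15%, 44.7% and 64.9%. Igf2-203, which starts upstream at chr7:142666816, held 52.9% in SI pericyte replicate 1, 0% in replicate 2 and 3.60% in replicate 3. The non-coding Igf2-208 held 68.5, 594.5 and 0 estimated counts in SI pericyte replicates 1, 2 and 3, and 0 in all colonic pericytes. In SI pericyte replicate 2 it exceeded Igf2-201, which held 480.3. Another coding transcript, Igf2-207, held 234.9 in SI pericyte replicate 3. The split between these transcripts varied more between SI pericyte libraries than the summed level did, so a share per length depends on how reads were assigned. The antisense gene *Igf2os* spans chr7:142659693-142670356, which overlaps the span of Igf2-203 and leaves out Igf2-201 and Igf2-208. The strand of the libraries is not stated, so reads from the overlap cannot be assigned to *Igf2* or *Igf2os*.

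The 250 bases before each of these starts are shown, since Igf2-201 held most of the counts in colonic pericytes and Igf2-203 most of those in 1 SI pericyte library. They come from RefSeq (GRCm38.p6), in which 9 of the 9 genes matched with 13 windows, and are written 5′ to 3′ on the minus strand. Capitals mark the GC box GGGCGG on either strand, which 32.7% of 32851 windows of this length hold, and neither window holds the TATA box TATAAA on either strand, which 12.4% hold. The window before Igf2-201 spans chr7:142657497-142657746, and the one before Igf2-203 spans chr7:142666817-142667066.
Igf2-201 upstream: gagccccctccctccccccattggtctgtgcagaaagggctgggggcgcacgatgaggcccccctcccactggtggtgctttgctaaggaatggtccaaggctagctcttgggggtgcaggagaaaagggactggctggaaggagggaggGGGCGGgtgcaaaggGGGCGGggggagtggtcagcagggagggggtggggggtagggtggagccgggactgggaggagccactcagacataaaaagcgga
Igf2-203 upstream: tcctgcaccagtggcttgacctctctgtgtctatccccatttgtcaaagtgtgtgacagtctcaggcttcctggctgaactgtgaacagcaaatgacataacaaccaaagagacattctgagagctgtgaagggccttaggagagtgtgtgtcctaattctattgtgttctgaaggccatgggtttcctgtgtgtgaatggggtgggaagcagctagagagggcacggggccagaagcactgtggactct
The first holds 2 GC boxes and the second none.

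*Igf1r*, the receptor (chr7:67952827-68233668, plus strand), was counted in every library and varied less than the ligands, 6.76-fold between the highest and the lowest mean. It was highest in SI SMC, at 776, 979.6 and 1178 CPM (978 ± 201, SD, n = 3), where *Igf1* was also highest. These libraries did not overlap the next population, colonic Fgfr2+ FB, with 583, 724 and 505 CPM. A broad middle group followed, with means of 502 CPM in colonic CD90+ FB, 492 in colonic pericytes, 472 in SI CD34+ FB, 456 in colonic CD81+ FB and 452 in SI Fgfr2+ FB. Neighbours in this group overlapped, and colonic CD81+ FB ranged most widely, with 822, 323 and 225 CPM in replicates 1, 2 and 3. The lowest were colonic PDGFRα hi FB with 210.4, 272 and 211 CPM, SI pericytes with 121, 249.9 and 254 and SI PDGFRα hi FB with 132, 156 and 146. These 3 populations overlapped one another in order and lay below every SI Fgfr2+ FB library.

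SMC exceeded SI FB (log2 difference 1.64, SE 0.26, adjusted p = 6.62e-05) and SI pericytes fell below SMC (log2 difference -2.23, SE 0.36, adjusted p = 6.97e-05), both without overlap. Without SMC replicate 3 these were 1.51 (adjusted p = 0.00174) and -2.13 (adjusted p = 0.00039), and without SI pericyte replicate 1 the second was -2.02 (adjusted p = 0.000816). Within SI FB, *Igf1r* was higher in Fgfr2+ FB than in PDGFRα hi FB (log2 difference 1.64, SE 0.35, adjusted p = 0.00539) in 3 of 3 libraries. CD34+ FB also exceeded PDGFRα hi FB (log2 difference 1.71, SE 0.35, adjusted p = 0.00271), without overlap, and with length-scaled counts that call was lost (1.53, adjusted p = 0.0556; range 4.14e-05 to 0.0556). In the colon the matching difference between Fgfr2+ FB and PDGFRα hi FB was smaller than the fold threshold, 1.39 (adjusted p = 0.0359), and the interaction test between organs gave 0.26 (adjusted p = 1). Among FB the mean of the receptor was thus lowest in the subset with the most *Pdgfra* in both organs. In the colon the CD81+ FB and PDGFRα hi FB libraries overlapped. Neither CD81+ FB (0.98, adjusted p = 0.122) nor CD90+ FB (1.12, adjusted p = 0.138) was called against colonic PDGFRα hi FB. SI pericytes had less than colonic pericytes in 3 of 3 libraries, at -1.24 (adjusted p = 0.034), again under the fold threshold.

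The binding proteins held very unequal shares of their summed RNA. By CPM per kilobase, *Igfbp7* made up 63.0% (colonic Fgfr2+ FB) to 90.9% (SI pericytes) of the summed binding protein transcripts. *Igfbp3* came second in the populations where it was high, with 26.4 ± 5.87% (SD, n = 3) in SI Fgfr2+ FB, 23.3 ± 4.01% in colonic Fgfr2+ FB and 15.9 ± 4.45% in colonic CD90+ FB. In colonic pericytes its share was 0.0707%. *Igfbp5* held 1.80% in SI Fgfr2+ FB to 8.69% in colonic pericytes, and *Igfbp4* 1.89% in colonic pericytes to 7.64% in colonic CD90+ FB. *Igfbp6* reached 5.57% in colonic CD81+ FB and stayed below 1% elsewhere.

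**Figure D2:**
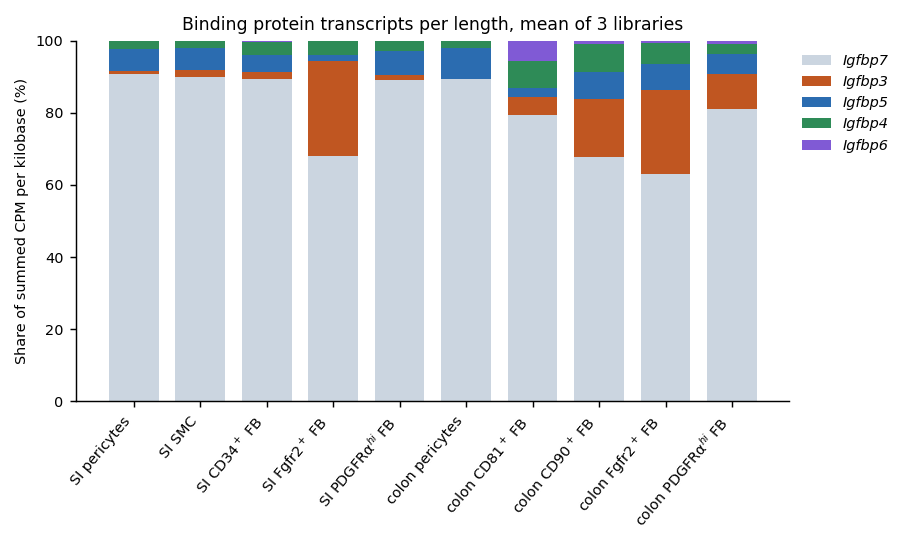
Share of each binding protein in the summed CPM per kilobase of the binding proteins (vertical, %, mean of 3 libraries) in the 10 populations (horizontal). *Igfbp7* takes most of every bar, and *Igfbp3* takes 26.4% in SI Fgfr2+ FB, 23.3% in colonic Fgfr2+ FB and 15.9% in colonic CD90+ FB.

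*Igfbp3*, which encodes the main carrier of IGF in blood (chr11:7206086-7213923, minus strand), was highest in Fgfr2+ FB of both organs. SI Fgfr2+ FB had 1887, 2921 and 1249 CPM (2019 ± 844, SD, n = 3) and colonic Fgfr2+ FB 1799, 1892 and 1723. Colonic CD90+ FB had 719, 1765 and 765 CPM, overlapping colonic Fgfr2+ FB, and these 3 populations lay above colonic PDGFRα hi FB with 349, 608 and 269.7. Colonic CD81+ FB had 734, 138 and 49.4 CPM, with replicate 1 above all others of its group by more than 5 times. SI CD34+ FB had 109, 231 and 196 CPM, SI PDGFRα hi FB 76.5, 181 and 51.1 and SMC 25.9, 45.5 and 192. Each of these overlapped its neighbours, down to SI pericytes with 24.2, 65.2 and 51.6 CPM. Colonic pericytes stood apart with 3.12, 3.15 and 8.33 CPM, and the highest mean was 415 times theirs.

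Within the SI, Fgfr2+ FB exceeded PDGFRα hi FB (log2 difference 4.29, SE 0.80, adjusted p = 0.00135) and CD34+ FB fell below Fgfr2+ FB (log2 difference -3.50, SE 0.77, adjusted p = 0.0133), both without overlap. The second call was lost without CD34+ FB replicate 1, 2 or 3 or Fgfr2+ FB replicate 2, at log2 fold changes of -3.73 to -3.14 and adjusted p of 0.0539 to 0.11, in a range of 6.57e-05 to 0.11 over all settings. In the colon the excess of Fgfr2+ FB over PDGFRα hi FB was 2.14 (adjusted p = 0.222), not called, though no libraries overlapped. It was called without a filter (2.13, adjusted p = 0.0484) and in a fit of only these populations (2.12, adjusted p = 0.001), in a range of 0.001 to 0.607. The interaction test of this subset contrast between the organs gave 2.15 (adjusted p = 0.597). Pericytes fell below FB in the SI (log2 difference -2.82, SE 0.69, adjusted p = 0.0041), where libraries overlapped, and without pericyte replicate 1 by -2.54 (adjusted p = 0.0345). In the colon they did so without overlap (log2 difference -7.16, SE 0.89, adjusted p = 4.99e-07). SMC against SI FB gave -1.92 (adjusted p = 0.0771), and it was called without SMC replicate 3 (-3.19, adjusted p = 0.014), by DESeq2 (-1.88, adjusted p = 0.0168) and without a filter (-1.85, adjusted p = 0.0187), in a range of 0.014 to 0.279. Against CD81+ FB, colonic CD90+ FB and Fgfr2+ FB had more *Igfbp3* without a call, the fold change of CD81+ FB being -1.82 (adjusted p = 0.386) and -2.56 (adjusted p = 0.107). Without CD81+ FB replicate 1 both were called, at -3.53 (adjusted p = 0.0186) and -4.27 (adjusted p = 0.0037). With all libraries the contrast with Fgfr2+ FB was also called by DESeq2 (-2.60, adjusted p = 0.0125) and without a filter (-2.53, adjusted p = 0.0136). Over all settings the adjusted p ranged over 0.0186 to 0.854 against CD90+ FB and 0.0037 to 0.344 against Fgfr2+ FB.

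Between the organs, the *Igfbp3* contrast depended on the subset. SI pericytes exceeded colonic pericytes (log2 difference 3.26, SE 0.78, adjusted p = 0.0139) in 3 of 3 libraries. This call was lost without colonic pericyte replicate 1 (3.02, adjusted p = 0.0519) or replicate 2 (2.99, adjusted p = 0.0593), and without SI pericyte replicate 1 it was 3.53 (adjusted p = 0.0145). A fit of both pericyte populations alone gave adjusted p = 0.452, in a range of 0.000184 to 0.452, and that edgeR fit called 0 of all genes, with 1090 at an unadjusted p below 0.05. In the models of all 30 libraries edgeR called 1003 genes there and DESeq2 2407. The pericytes of the organs also differed in smooth muscle marker sum, 4580.4, 3103 and 3281 CPM in the SI and 10389, 11466 and 11416 in the colon, and the part of this in *Igfbp3* was not tested. In PDGFRα hi FB the SI libraries all lay below the colonic ones in *Igfbp3*, at -1.99 (adjusted p = 0.365), which was not called. A fit of both populations alone called it (-2.04, adjusted p = 0.0369; range 0.0369 to 1). The difference between the pericyte and the PDGFRα hi FB contrast was itself called (log2 difference 5.25, SE 1.06, adjusted p = 0.00711), in every alternative and with any library left out. Without SI pericyte replicate 1 it was 5.57 (adjusted p = 0.00447). In Fgfr2+ FB the organs differed by 0.16 (adjusted p = 0.974).

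*Igfbp4*, an inhibitor of IGF action that PAPP-A cleaves (chr11:99041244-99054392, plus strand), was highest in colonic CD90+ FB, at 579, 598 and 594 CPM (590.1 ± 9.83, SD, n = 3), above all other libraries. Colonic Fgfr2+ FB had 365, 524 and 522 CPM, SI CD34+ FB 412, 365 and 357 and colonic CD81+ FB 335, 406 and 294. SI Fgfr2+ FB had 379, 267 and 224 CPM and SI PDGFRα hi FB 235, 240.4 and 107. From colonic Fgfr2+ FB downwards every population overlapped the next. At the low end stood colonic PDGFRα hi FB with 91.5, 112 and 154 CPM, SI pericytes with 93.8, 70.3 and 134, colonic pericytes with 46.8, 93.1 and 61.0 and SMC with 45.6, 46.6 and 91.8. The highest mean was 9.63 times the lowest.

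In the colon the CD34+ subsets exceeded PDGFRα hi FB. The log2 fold changes were 2.31 for CD90+ FB (SE 0.37, adjusted p = 0.000244), 1.98 for Fgfr2+ FB (SE 0.36, adjusted p = 0.00173) and 1.54 for CD81+ FB (SE 0.36, adjusted p = 0.00787), none with overlap. These 3 contrasts share the PDGFRα hi FB libraries. That of CD81+ FB was lost without CD81+ FB replicate 2 (1.40, adjusted p = 0.0414), PDGFRα hi FB replicate 1 (1.38, adjusted p = 0.0708) or PDGFRα hi FB replicate 2 (1.49, adjusted p = 0.0498), and was 1.56 (adjusted p = 0.0173) without CD81+ FB replicate 1. It also fell just under the fold threshold with RLE size factors (1.49, adjusted p = 0.00877) and with DESeq2 (1.49, adjusted p = 0.000596), in a range of 0.000596 to 0.0708 over all settings. SMC had less than SI FB, without overlap (log2 difference -2.18, SE 0.33, adjusted p = 3.38e-05). Without SMC replicate 3 this was -2.56 (adjusted p = 3.39e-05). Colonic pericytes had less than colonic FB, with overlap (log2 difference -2.29, SE 0.33, adjusted p = 4.89e-06). With length-scaled counts the colonic pericyte difference was -1.39 (adjusted p = 0.00574; range 2.84e-14 to 0.00574), under the fold threshold. In SI pericytes the difference was -1.48 (adjusted p = 0.00106), also just under it, and it passed without replicate 3 of the pericytes (-1.76, adjusted p = 0.00109), of PDGFRα hi FB (-1.58, adjusted p = 0.000359) or of Fgfr2+ FB (-1.53, adjusted p = 0.00101). With all libraries it passed without a filter (-1.52, adjusted p = 0.000892), and the adjusted p ranged over 1.38e-05 to 0.159 over all settings.

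*Igfbp5*, which encodes a binding protein that also attaches to extracellular matrix (chr1:72857932-72874884, minus strand), was high in pericytes and in some FB. Colonic pericytes had 1219, 1795 and 1672 CPM (1562 ± 303, SD, n = 3), colonic Fgfr2+ FB 1245, 1271 and 1928 and colonic CD90+ FB 997, 1481 and 1311. SI pericytes had 1194, 1455 and 792 CPM and SI CD34+ FB, the gate with the Igfbp5+ FB, 942, 1149 and 1182. The libraries of these 5 populations overlapped from each to the next. SI PDGFRα hi FB had 757, 831 and 1196 CPM, SMC 798, 472 and 493 and colonic PDGFRα hi FB 731, 256 and 745, of which replicate 2 was far below the others. The lowest were colonic CD81+ FB with 526, 384 and 112 CPM and SI Fgfr2+ FB with 396, 276 and 262. No neighbours in the order were separated, and the highest mean was 5.02 times the lowest.

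Fgfr2+ FB held different amounts of *Igfbp5* in the organs. Their gates were CD34- in the SI and CD34+ in the colon, so organ and gate cannot be told apart. The paper likens colonic Fgfr2+ FB to Fgfr2+ FB and also to Igfbp5+ FB of the SI. The latter were sorted within the SI CD34+ FB gate. SI Fgfr2+ FB fell below colonic Fgfr2+ FB (log2 difference -2.25, SE 0.42, adjusted p = 0.00242), each of 3 libraries below each of 3, and -2.14 (adjusted p = 0.0226) without SI Fgfr2+ FB replicate 3, the shallowest library. In PDGFRα hi FB the difference had the other sign, 0.68 (adjusted p = 0.949), and was not called. The interaction of both contrasts was called (log2 difference -2.94, SE 0.58, adjusted p = 0.00883) in every alternative and with any library left out, -2.83 (adjusted p = 0.0357) without SI Fgfr2+ FB replicate 3. Read the other way, Fgfr2+ FB had less *Igfbp5* than PDGFRα hi FB in the SI (log2 difference -1.58, SE 0.41, adjusted p = 0.0307), without overlap, and more in the colon at 1.36 (adjusted p = 0.124), not called. The SI call was lost without replicate 2 or 3 of PDGFRα hi FB or of Fgfr2+ FB, at -1.65 to -1.35 and adjusted p of 0.0601 to 0.157. With length-scaled counts it was lost as well (-1.46, adjusted p = 0.1; range 0.0113 to 0.157). The interaction was thus steadier than this within-organ contrast.

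SI CD34+ FB exceeded SI Fgfr2+ FB (log2 difference 1.81, SE 0.42, adjusted p = 0.0186), without overlap, but not SI PDGFRα hi FB (0.23, adjusted p = 1). The former was lost without replicate 2 or 3 of either population, at 1.70 to 1.77 and adjusted p of 0.0659 to 0.109, and with length-scaled counts (adjusted p = 0.0785; range 0.00244 to 0.109). Colonic CD81+ FB fell below CD90+ FB (log2 difference -1.89, SE 0.42, adjusted p = 0.0244) and Fgfr2+ FB (log2 difference -2.12, SE 0.42, adjusted p = 0.00694), in neither case with overlap. Against CD90+ FB the call was lost without replicate 2 or 3 of either population, at -1.99 to -1.45 and adjusted p of 0.0786 to 0.119. It was lost too with length-scaled counts (adjusted p = 0.0789) and in a fit of both populations alone (adjusted p = 0.197), in a range of 0.00134 to 0.197. Against Fgfr2+ FB it was lost in a fit of both populations alone (adjusted p = 0.112, range 9.06e-05 to 0.112). Without CD81+ FB replicate 1 the fold changes were -2.35 (adjusted p = 0.00744) and -2.58 (adjusted p = 0.00287).

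*Igfbp6*, which encodes a binding protein that prefers IGF2 over IGF1 (chr15:102144362-102149511, plus strand), was the family gene with the sharpest presence and absence. Colonic CD81+ FB had 75.8, 201 and 130.2 CPM (136 ± 62.6, SD, n = 3), all above every other library. Colonic CD90+ FB had 32.7, 33.8 and 9.73 CPM and colonic Fgfr2+ FB 18.9, 16.8 and 25.5, with overlap. SI CD34+ FB had 16.5, 14.7 and 13.9 CPM, and colonic PDGFRα hi FB 21.1, 2.81 and 19.5, its replicate 2 well below the others. SI PDGFRα hi FB and SI Fgfr2+ FB had 0 counts in all 3 libraries. SMC had 1, 24 and 0 counts, colonic pericytes 0, 1 and 4, and SI pericytes 0, 0 and 1. In the SI the gene was thus counted mainly in CD34+ FB, whereas in the colon every FB population had it. The colonic gates of CD81+, CD90+ and Fgfr2+ FB were CD34+, while SI Fgfr2+ FB were CD34-. PDGFRα hi FB were CD34- in both organs.

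Against populations at 0 a fold can be given only as a bound, taken from a floor of 3 counts in each library, which was 0.142 to 1.04 CPM and covers counting error only. SI CD34+ FB was at least 49.2-fold above SI PDGFRα hi FB (adjusted p = 0.000229) and at least 29.7-fold above SI Fgfr2+ FB (adjusted p = 0.0016). Between organs, colonic PDGFRα hi FB was at least 47.4-fold above SI PDGFRα hi FB (adjusted p = 0.000702), and colonic Fgfr2+ FB at least 40.3-fold above SI Fgfr2+ FB (adjusted p = 0.000724). The latter comparison sets CD34+ cells against CD34- cells, so organ and gate cannot be told apart. These 4 calls were kept in every alternative and with any library left out. The floors of SI Fgfr2+ FB were 0.209, 0.271 and 1.04 CPM in replicates 1, 2 and 3. The shallow replicate 3 thus lowered both bounds over this population. Colonic pericytes, with 5 counts among them, were called below colonic FB (adjusted p = 8.13e-05), and no fitted fold is given for so few counts. Colonic CD81+ FB against PDGFRα hi FB gave 3.23 (adjusted p = 0.0802), which was not called, though no libraries overlapped. DESeq2 (adjusted p = 0.00921), no filter (adjusted p = 0.0434) and a fit of only these populations (adjusted p = 0.0324) called it, in a range of 0.00921 to 0.288. Its margins over CD90+ FB and Fgfr2+ FB were 2.42 (adjusted p = 0.415) and 2.73 (adjusted p = 0.28), the latter called in a fit of only these populations (adjusted p = 0.0439; range 0.0439 to 0.557). SI pericytes against SMC, a contrast between few counts, was called without SMC replicate 3 (adjusted p = 0.044) and not otherwise (adjusted p = 0.0943).

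*Igfbp7*, which encodes a secreted relative with low affinity for IGF (chr5:77349240-77408041, minus strand), was the most abundant family gene by CPM per kilobase in every population. Its levels ran from 3414 ± 394 CPM (SD, n = 3) in SI CD34+ FB to 1437 ± 199.9 in colonic PDGFRα hi FB, a 2.38-fold range. The SI CD34+ FB libraries had 3556, 3718 and 2969 CPM and the colonic PDGFRα hi FB libraries 1266, 1389 and 1657, and no neighbours in the order were separated. By length it ranked between the thirteenth and the thirty-second gene in all populations. It was called in none of the comparisons; its largest log2 fold change among the tested contrasts of populations was 0.80 (adjusted p = 0.0746), for SI pericytes against SMC. *Igfbp2* (chr1:72824503-72852474, plus strand) had 1 count in each of 2 colonic PDGFRα hi FB libraries and none in the other 28, so that no level could be compared.

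**Figure D3:**
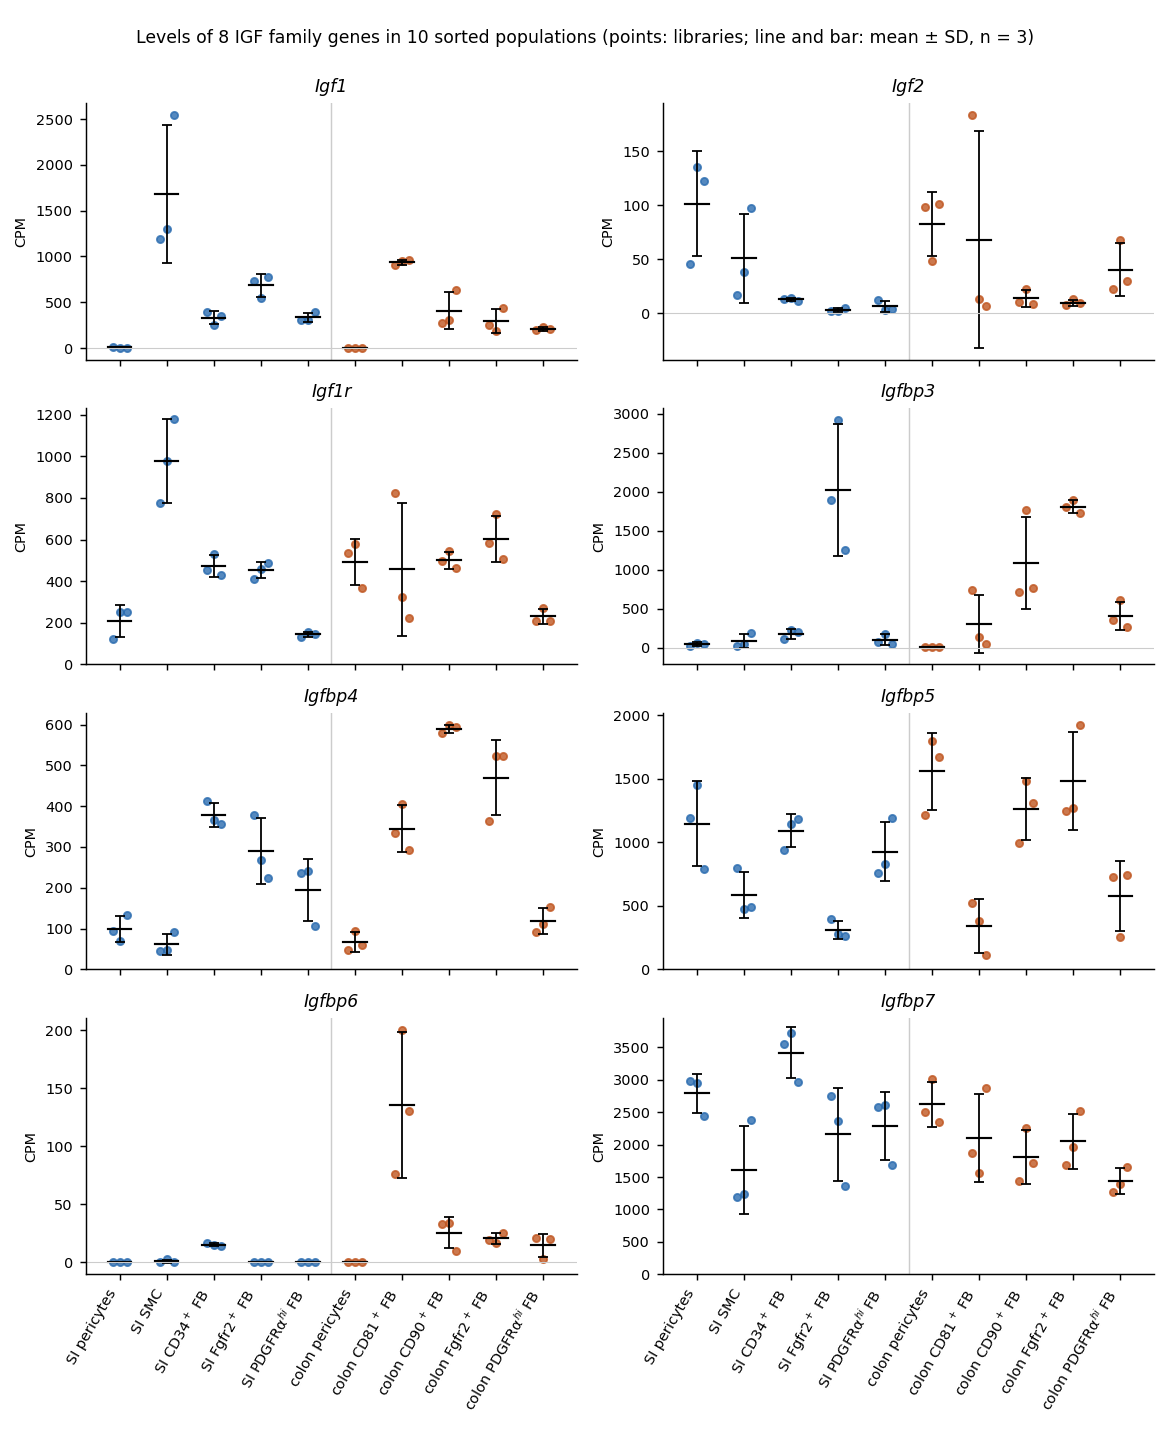
Levels (CPM) of the 8 tested family genes in the 10 populations, SI in blue and colon in orange; points are libraries, and lines and bars give mean ± SD (n = 3). *Igf1* is near 0 in both pericyte populations, *Igfbp3* is highest in Fgfr2+ FB of both organs, and *Igfbp6* is at 0 in SI PDGFRα hi FB and SI Fgfr2+ FB.

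Read by comparison, the family genes called can be set against the share of all tested genes that were called. SI pericytes against SI FB called 3 of 8, with *Igf2* higher and *Igf1* and *Igfbp3* lower, where 16.6% of all genes were called. Colonic pericytes against colonic FB called 5 of 8, *Igf2* higher and *Igf1*, *Igfbp3*, *Igfbp4* and *Igfbp6* lower, against 16%. Lower *Igf1*, higher *Igf2* and lower *Igfbp3* were thus called in pericytes of both organs. The colonic *Igf2* call was lost in 11 of 22 alternatives and left-out libraries. SI SMC against SI FB called 4 of 8, *Igf1*, *Igf2* and *Igf1r* higher and *Igfbp4* lower, against 5.16%. SI pericytes against SMC called 2 of 8, both lower (*Igf1* and *Igf1r*), against 10.1%. These SI contrasts share libraries and are not independent of each other.

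Within the FB of the SI, CD34+ FB against PDGFRα hi FB called 2 of 8, *Igf1r* and *Igfbp6* higher, against 3.23% of all genes. Fgfr2+ FB against PDGFRα hi FB called 3 of 8, *Igf1r* and *Igfbp3* higher and *Igfbp5* lower, against 2.53%. CD34+ FB against Fgfr2+ FB called 3 of 8, *Igfbp5* and *Igfbp6* higher and *Igfbp3* lower, against 1.21%. These calls were of the receptor and of binding proteins, and the ligands were called in none of these contrasts. Without a call, *Igf1* in SI Fgfr2+ FB (545 to 780.0 CPM) lay above every CD34+ FB (256 to 390.3) and PDGFRα hi FB library (308 to 389.7). *Igf2* in CD34+ FB (11.5 to 13.9 CPM) lay above every Fgfr2+ FB library (1.95 to 4.84). The ligand levels of the other pairs of SI FB overlapped.

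Within the FB of the colon, CD81+ FB against PDGFRα hi FB called 2 of 8, *Igf1* and *Igfbp4* higher, against 3.94%. CD90+ FB against PDGFRα hi FB called 1 of 8, *Igfbp4* higher, against 1.43%, and Fgfr2+ FB against PDGFRα hi FB called the same gene alone, 1 of 8, against 1.35%. CD81+ FB against CD90+ FB called 1 of 8, *Igfbp5* lower, against 0.621%. CD81+ FB against Fgfr2+ FB called 2 of 8, *Igf1* higher and *Igfbp5* lower, against 0.941%. CD90+ FB against Fgfr2+ FB called 0 of 8, against 0%; edgeR called 0 of all genes there, with 569 at an unadjusted p below 0.05, and DESeq2 called 37. Their *Igfbp3* levels overlapped, as did those of *Igf1*, *Igf2*, *Igf1r*, *Igfbp5*, *Igfbp6* and *Igfbp7*, and only *Igfbp4* was higher in CD90+ FB in 3 of 3 libraries, at 0.33 (adjusted p = 1).

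Between the organs, PDGFRα hi FB called 1 of 8 (*Igfbp6*, lower in the SI) against 0.963% of all genes, and Fgfr2+ FB called 2 of 8 (*Igfbp5* and *Igfbp6*, lower in the SI) against 1.45%. Pericytes called 1 of 8 (*Igfbp3*, higher in the SI) against 5.72%. The interaction of organ with subset called 1 of 8 for Fgfr2+ FB against PDGFRα hi FB (*Igfbp5*), where 0.661% of all genes were called, and 1 of 8 for pericytes against PDGFRα hi FB (*Igfbp3*), against 1.57%. Both interactions share the PDGFRα hi FB libraries. Ligands were called between the organs only in single settings. *Igf2* was lower in SI than in colonic PDGFRα hi FB without overlap, at -2.58 (adjusted p = 0.258), and DESeq2 called it (-2.62, adjusted p = 0.048; range 0.048 to 1), while *Igf1* was called in pericytes and Fgfr2+ FB with 1 library left out, as given above.

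Other genes of the pathway were counted over 7 lists of 49 genes, of which 44 were tested and 19 called in at least 1 of 16 comparisons between populations. Of all 17542 genes tested, 5623 (32.1%) were called in at least 1 of the 16. SI pericytes against SI FB called 9 of the 44 (3 higher, 6 lower; 16.6% of all genes) and SMC against SI FB 4 (1 higher, 3 lower; 5.16%). SI pericytes against SMC called 9 (5 higher, 4 lower; 10.1%) and colonic pericytes against colonic FB 7 (3 higher, 4 lower; 16%). The lists as a whole were not tested against all genes. Contrasts between FB subsets or between organs called 0 to 4 of the 44 each, where 0 to 5.72% of all genes were called. The proteases that cleave IGF binding proteins, with their inhibitors, were called in 5 of 5 genes, and the other binding proteins and partners (*Igfbp1*, *Igfals* and *Igfbpl1*) in 0 of 3. Those 3 genes had only 46, 72 and 229 counts over all libraries together, too few to read a lack of calls as a result. *Igf2r*, the receptor that clears IGF2, was the 1 of 3 other receptors called, lower in SMC than in SI FB at -1.67 (adjusted p = 0.00372), a call lost without SMC replicate 3 at -1.40 (adjusted p = 0.0623). Without SI pericyte replicate 1, 15 of 23 pathway calls that use it were kept and 8 lost, and without SMC replicate 3, 11 of 13 were kept and 2 lost. Without colonic CD81+ FB replicate 1, 11 of 12 were kept and 1 lost, and without SI Fgfr2+ FB replicate 3, 15 of 18 were kept and 3 lost. Without replicate 2, 22 of 23 were kept for SI pericytes and 9 of 12 for colonic pericytes.

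*Pappa*, the protease gene for *Igfbp4* cleavage, was lower in pericytes and SMC than in FB. SI pericytes had 5.15, 10.1 and 1.35 CPM and SMC 5.59, 0.963 and 7.26, against means of 93.4 in SI CD34+ FB, 276 in SI Fgfr2+ FB and 227 in SI PDGFRα hi FB. The log2 fold changes were -5.02 (adjusted p = 1.11e-05) for SI pericytes, -5.29 (adjusted p = 1.39e-05) for SMC and -5.25 (adjusted p = 4.63e-06) for colonic pericytes, none with overlap. *Pappa2*, its relative, stood out in colonic CD81+ FB with 27.4, 61.1 and 105 CPM, at 4.05 (adjusted p = 0.0022) over PDGFRα hi FB, 3.42 (adjusted p = 0.0363) over CD90+ FB and 4.03 (adjusted p = 0.00959) over Fgfr2+ FB. *Stc2*, an inhibitor of PAPP-A, had 0.858, 0.252 and 0.738 CPM in SI pericytes and 32.5, 28.1 and 52.9 in colonic pericytes (-5.96, adjusted p = 6.63e-05). It was also lower in SI pericytes than in SI FB (-7.92, adjusted p = 6.3e-08) and SMC (-7.41, adjusted p = 6.24e-07). *Stc2* exceeded the PDGFRα hi FB level in SI CD34+ FB (2.73, adjusted p = 0.0136), colonic CD81+ FB (2.97, adjusted p = 0.00682) and colonic Fgfr2+ FB (2.67, adjusted p = 0.0359). *Htra1*, a serine protease gene, averaged 1.04 CPM in SMC, with -5.22 (adjusted p = 7.32e-06) for SMC against SI FB and 5.23 (adjusted p = 1.28e-05) for SI pericytes against SMC. It was lower in colonic pericytes than in colonic FB (-2.34, adjusted p = 0.00373). *Stc1*, the other stanniocalcin gene, was higher than in SI FB in SI pericytes (2.53, adjusted p = 0.0473) and SMC (2.97, adjusted p = 0.0423), and lower in colonic CD81+ FB than in PDGFRα hi FB (-5.48, adjusted p = 0.027). Each of these *Stc1* calls was lost without some library that stood apart. Without pericyte replicate 1 the SI pericyte difference had the other sign, -2.70 (adjusted p = 0.124), and was not called. Without SMC replicate 3 that of SMC was 2.23 (adjusted p = 0.396), and without SI Fgfr2+ FB replicate 3 both were lost, at 2.61 (adjusted p = 0.0564) and 3.06 (adjusted p = 0.0564). The CD81+ FB call was lost without CD81+ FB replicate 1, at -5.35 (adjusted p = 0.116).

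Downstream of the receptor, 3 of 6 tested adaptors were called in at least 1 of the 16 contrasts, beside 32.1% of all genes. *Irs1*, the insulin receptor substrate, was higher in SI pericytes than in SI FB (1.69, adjusted p = 0.00121) and SMC (2.16, adjusted p = 0.00447), and both calls were lost without pericyte replicate 1, at 0.86 (adjusted p = 0.147) and 1.3 (adjusted p = 0.0899). *Grb10*, an imprinted inhibitor of the receptor, was lower in SI pericytes than in SI FB (-1.82, adjusted p = 0.00173), and without the same library at -1.46 (adjusted p = 0.0171), under the fold threshold. *Gab1* was higher in SI pericytes than in SMC (1.78, adjusted p = 0.00199) and in colonic pericytes than in colonic FB (1.57, adjusted p = 5.74e-05). Of 17 genes of the PI3K, AKT and FOXO list 6 were called, beside the same share. Among them, *Pik3r1* was higher in SI pericytes than in SMC, at 2.07 (adjusted p = 2.01e-06), and *Pdpk1* was higher in SI pericytes than in SI FB (1.55, adjusted p = 0.00153), a call lost without pericyte replicate 1 at 0.66 (adjusted p = 0.233). Colonic pericytes had more *Foxo4* (2.70, adjusted p = 0.0146) and *Tsc1* (1.70, adjusted p = 0.00225) than colonic FB, and both calls were lost without colonic pericyte replicate 2, at 2.31 (adjusted p = 0.0924) and 1.42 (adjusted p = 0.0347). *Foxo1*, a transcription factor that AKT restrains, was higher in SI CD34+ FB than in SI PDGFRα hi FB (2.2, adjusted p = 0.0191). In SI pericytes *Tsc1* was lower (-1.94, adjusted p = 0.0405) and *Foxo1* higher (1.79, adjusted p = 0.05 after rounding) than in colonic pericytes. Both calls were lost without SI pericyte replicate 1, at -1.95 (adjusted p = 0.0867) and 0.41 (adjusted p = 0.677). That of *Tsc1* was also lost without replicate 2 of either pericyte population.

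Of 5 genes of the growth hormone axis 2 were called in at least 1 of the 16 contrasts, again beside 32.1% of all genes. *Ghr*, the growth hormone receptor gene, was lower in colonic pericytes than in colonic FB (-2.06, adjusted p = 0.00133), at -3.43 (adjusted p = 2.76e-06) without colonic pericyte replicate 2 and -1.88 (adjusted p = 0.00142) without colonic CD81+ FB replicate 1. *Socs2*, a feedback inhibitor, was lower in SI pericytes than in SI FB (-1.99, adjusted p = 0.00132) and SMC (-2.40, adjusted p = 0.00125). A difference between the organs in pericytes was called for neither, at 0.50 (adjusted p = 0.567) for *Ghr* and -0.60 (adjusted p = 0.45) for *Socs2*. Of 9 imprinted genes 5 were tested and 2 called, beside the same 32.1%. *Peg3*, a paternally expressed zinc finger gene, averaged 53.8 CPM in SI PDGFRα hi FB, against 756 in SI CD34+ FB (3.81, adjusted p = 5.88e-08) and 533 in SI Fgfr2+ FB (3.31, adjusted p = 1.16e-06). It was also lower in SI pericytes than in SI FB (-2.42, adjusted p = 2.45e-06) and SMC (-3.34, adjusted p = 2.51e-07), and lower in the SI than in the colon in PDGFRα hi FB (-2.34, adjusted p = 0.000209) and pericytes (-1.78, adjusted p = 0.0033). The last was -1.49 (adjusted p = 0.0165) without SI pericyte replicate 1, under the fold threshold. *Plagl1*, an imprinted zinc finger gene, was lower in pericytes than in FB in the SI (-5.72, adjusted p = 5.02e-05) and the colon (-2.98, adjusted p = 0.00579). It was also lower in SI pericytes than in SMC (-6.49, adjusted p = 4.62e-05). Among SI FB it was lower in Fgfr2+ FB than in PDGFRα hi FB (-3.02, adjusted p = 0.0484). CD34+ FB had more of it than Fgfr2+ FB (3.58, adjusted p = 0.0268). *H19* and *Meg3*, non-coding imprinted genes, were not analysed here.

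The genes whose mean log2 CPM ran most like that of each family gene over the 10 populations were named by Pearson's r among 12603 genes with a highest mean of at least 10 CPM. For *Igf1* these were *Rmnd5b* (r = 0.975) and *Nup93* (0.972), and for *Igf2* *Tet3* (0.956) and *Klhl29* (0.936). *Igf1r* ran most like *Slc16a7* (0.960) and *Lmo4* (0.936). For the binding proteins they were *Ccdc157* (0.952) and *Ugcg* (0.946) beside *Igfbp3*, *Trim8* (0.978) and *Tbc1d4* (0.948) beside *Igfbp4*, and *Gm16253* (0.925) and *Gtf2b* (0.910) beside *Igfbp5*. *Igfbp6* ran most like *Rtl3* (0.990) and *AW551984* (0.968), both highest in colonic CD81+ FB, and *Igfbp7* most like *Gm4294* (0.860) and *Elp3* (0.852). For *Igfbp2* such a likeness would rest on 2 counts and is not given. Within the family the highest r was that of *Igfbp3* with *Igfbp4* (0.760) and the lowest that of *Igf2* with *Igfbp3* (-0.718). These values are over 10 population means that share libraries and scaling, and describe the pattern only.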

How the data were processed

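RNA of 10 sorted populations, 3 libraries each, had been made into libraries with the Ovation Ultralow system V2 kit. The submitters' processing notes name Trim Galore 0.4.0, FastQC 0.11.2 and kallisto 0.42.5, with build GRCm38 (mm10). Per the file headers, the authors deposited for each library the estimated count and the TPM of each transcript from kallisto. The 98492 transcripts in each file were matched to GENCODE M21 annotation (97116 matched, 32316 symbols), and estimated counts were summed by symbol and rounded to whole numbers; the deposited TPM values were not tested. CPM per kilobase divided each transcript's estimated count by its effective length.

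The tests used edgeR 4.0.16 (with limma 3.58.1, R 4.3.3) with TMM, 10 group terms over 30 libraries, 20 residual degrees of freedom and a prior count of 2 for log2 CPM. Genes needed 6 counts in at least 3 libraries. The mean of all FB populations of an organ, equally weighted on the log scale, was the reference for pericytes and SMC. Alternatives were DESeq2 1.42.0, RLE size factors, length-scaled counts, a filter of 10 counts in a whole population, no filter, only the compared populations, the replicate number as a block, and leaving out each library. The fits were also run on simulated data, whose outcome is not given here. Genes named are the 9 family genes, the listed pathway genes called in at least 1 of 16 contrasts, the listed cell type markers, and the 2 genes most like each family gene; the family genes, lists and markers were chosen with earlier results of these data known. *Igfbp2* had a count in 2 libraries and was not tested. Of 31-base stretches of the family transcripts at most 5.42% (*Igfbp4*) also occur in other genes. The paper speaks of sorting both organs from the same animals, but the labels do not say which libraries share a mouse, nor the library strand, so p-values measure the spread between these libraries.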

Additional observations from a re-analysis of the deposited data

Results flagged for a closer look

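The difference between the organs depended on the sorted FB subset for *Igfbp5*. The gates of both subsets differed between the organs, so organ and gate cannot be told apart. By the test of the interaction, the SI against colon contrast of Fgfr2+ FB differed from that of PDGFRα hi FB by a log2 value of -2.94 (SE 0.58, adjusted p = 0.00883). In Fgfr2+ FB the SI stood at 396, 276 and 262 CPM and the colon at 1245, 1271 and 1928, and in PDGFRα hi FB the SI stood at 757, 831 and 1196 and the colon at 731, 256 and 745.

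For *Igfbp3*, the SI against colon contrast of pericytes differed from that of PDGFRα hi FB by 5.25 (SE 1.06, adjusted p = 0.00711). Pericytes had 24.2, 65.2 and 51.6 CPM in the SI and 3.12, 3.15 and 8.33 in the colon, while PDGFRα hi FB had 76.5, 181 and 51.1 in the SI and 349, 608 and 269.7 in the colon. Both interactions share the PDGFRα hi FB libraries. SI pericyte replicate 1, with an immune marker sum of 432 CPM, had the lowest *Igfbp3* of the SI pericytes, and without it the interaction was 5.57 (adjusted p = 0.00447).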

How the results depend on the processing

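Of 35 calls of family genes, 23 were kept in every alternative and with any library left out, and 12 were lost in some. No called fold change changed sign. Over all alternatives and left-out libraries 2059 single fold changes kept their side of the thresholds, 49 fell below and 25 rose above. Of 1554 fold changes called in neither setting, 38 changed sign. Of 90 population means of family genes in CPM, 17 moved by more than their SD with length-scaled counts (3 of *Igf1*, 6 of *Igf2*, 3 of *Igf1r* and 5 of *Igfbp4*), and 1 with RLE size factors (*Igfbp4* in colonic CD90+ FB). The cause of the changes was not tested. The depth of 2245052 counts in the smallest library set its floor of 3 counts at the highest value, 1.04 CPM, and 3 libraries a group leave small differences undetected.

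The number of family genes called moved by more than 1.5 times in these cases. Length-scaled counts gave 3 in place of 5 for colonic pericytes against FB, 1 in place of 2 for SI CD34+ FB against PDGFRα hi FB, 0 in place of 1 for colonic CD81+ FB against CD90+ FB and 1 in place of 2 for CD81+ FB against Fgfr2+ FB. RLE size factors gave 1 in place of 2 for colonic CD81+ FB against PDGFRα hi FB. DESeq2 gave 4 in place of 2 for colonic CD81+ FB against Fgfr2+ FB, 2 in place of 1 for PDGFRα hi FB between organs and 2 in place of 1 for the interaction of pericytes with PDGFRα hi FB. Without a filter, colonic Fgfr2+ FB against PDGFRα hi FB gave 2 in place of 1. In a fit of only the compared populations, colonic Fgfr2+ FB against PDGFRα hi FB gave 2 and PDGFRα hi FB between organs 2 in place of 1, CD81+ FB against CD90+ FB gave 0, CD81+ FB against Fgfr2+ FB gave 1, and pericytes between organs gave 0 by edgeR, where 1090 of all genes had an unadjusted p below 0.05 (in the models of all 30 libraries edgeR called 1003 and DESeq2 2407).

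With single libraries left out, the number of family genes called ranged over 3 to 4 for SI pericytes against FB, 4 to 4 for SMC against FB, 2 to 3 for SI pericytes against SMC and 4 to 5 for colonic pericytes against FB. In SI FB it ranged over 2 to 2 for CD34+ FB against PDGFRα hi FB, 2 to 3 for Fgfr2+ FB against PDGFRα hi FB and 1 to 3 for CD34+ FB against Fgfr2+ FB. In colonic FB it ranged over 1 to 2 for CD81+ FB against PDGFRα hi FB, 1 to 1 for CD90+ FB against PDGFRα hi FB, 1 to 1 for Fgfr2+ FB against PDGFRα hi FB, 0 to 2 for CD81+ FB against CD90+ FB, 1 to 3 for CD81+ FB against Fgfr2+ FB and 0 to 0 for CD90+ FB against Fgfr2+ FB. Between organs it ranged over 1 to 1 for PDGFRα hi FB, 2 to 3 for Fgfr2+ FB and 0 to 2 for pericytes, and both interactions stayed at 1. The number of all genes called moved by over 1.5 times in 35 left-out fits and in 106 it did not. It ranged over 616 to 1711 in place of 1003 for pericytes between organs and 159 to 710 in place of 275 for the pericyte interaction. Other such ranges, with the main count in brackets, were 530 to 921 (906) for SMC against FB and 126 to 180 (213) for SI CD34+ FB against Fgfr2+ FB. In the colon, against PDGFRα hi FB, CD90+ FB gave 160 to 188 (250) and Fgfr2+ FB 129 to 162 (236). CD81+ FB gave 44 to 155 (109) against CD90+ FB and 84 to 192 (165) against Fgfr2+ FB. Between organs, PDGFRα hi FB gave 108 to 122 (169), Fgfr2+ FB 162 to 221 (255) and the Fgfr2+ FB interaction 63 to 97 (116).

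The replicate block (the replicate number as a term) gave 4 in place of 5 for colonic pericytes against FB, where *Igf2* had an adjusted p of 0.0551 (range 0.000342 to 0.26), and changed no other call of a family gene. The labels give the libraries only a number in common, and 1 of 135 same-numbered pairs correlated above 0.1 in deviations from their group means (mean r 0.00755, lowest -0.112, highest 0.135). As a hint from the data, not the design, 23 of 30 libraries correlated best with their own number.

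Among all genes, DESeq2 called more than edgeR by over 1.5 times in 14 comparisons. In the SI it called 595 in place of 213 for CD34+ FB against Fgfr2+ FB, 920 in place of 444 for Fgfr2+ FB against PDGFRα hi FB and 2941 in place of 1779 for pericytes against SMC. In the colon it called 1215 in place of 692 for CD81+ FB against PDGFRα hi FB, 471 in place of 250 for CD90+ FB against PDGFRα hi FB, 479 in place of 236 for Fgfr2+ FB against PDGFRα hi FB, 382 in place of 109 for CD81+ FB against CD90+ FB, 537 in place of 165 for CD81+ FB against Fgfr2+ FB and 37 in place of 0 for CD90+ FB against Fgfr2+ FB. Between organs it called 402 in place of 169 for PDGFRα hi FB, 829 in place of 255 for Fgfr2+ FB and 2407 in place of 1003 for pericytes, with 370 in place of 116 and 1059 in place of 275 for the interactions of Fgfr2+ FB and of pericytes. A fit of only the compared populations called 1349 in place of 566 for SI CD34+ FB against PDGFRα hi FB, 395 for CD34+ FB against Fgfr2+ FB, 390 for SI pericytes against SMC, 730 for CD90+ FB against PDGFRα hi FB, 481 for colonic Fgfr2+ FB against PDGFRα hi FB, 34 for CD81+ FB against CD90+ FB, 68 for CD81+ FB against Fgfr2+ FB, 2 for CD90+ FB against Fgfr2+ FB, 406 for PDGFRα hi FB between organs, and 201 and 69 for the interactions. Without a filter the counts were 167 for CD81+ FB against CD90+ FB, 3 for CD90+ FB against Fgfr2+ FB and 437 for the pericyte interaction, and length-scaled counts called 67 for CD81+ FB against CD90+ FB. DESeq2 moved the share of higher calls from 66.2% (600 higher, 306 lower) to 55.3% (740 higher, 597 lower) for SMC against FB, and from 58.1% (1629 higher, 1176 lower) to 45.7% (1493 higher, 1777 lower) for colonic pericytes against FB.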

Other observations

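*Igfbp2* and *Igfbp5* lie next to each other on chromosome 1, on opposite strands and 5457 bases apart, and *Igfbp2* had 2 counts over all 30 libraries. Of the 31-base stretches of the *Igfbp7* transcripts, 4.57% also occur on the opposite strand of *Polr2b* transcripts.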
